A study of Homo sapiens with 6 samples.

Results

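The 10 genes described here encode enzymes that set which acyl chains membrane phospholipids carry: ACSL4, ACSL3, ACSL1, LPCAT3, MBOAT1, MBOAT2, FADS1, FADS2, SCD and POR. They were chosen by name for that role and make up 10 of the 33496 genes with a value. Expression was measured by bulk RNA-seq in 6 libraries of ARPE-19, an established human retinal pigment epithelium (RPE) cell line. All 6 came from wild-type cells given erastin (5 μM for 24 h), which blocks cystine uptake through system xc- and drives cells into ferroptosis, an iron-dependent death by lipid peroxidation. The 3 Era libraries had erastin alone, and the 3 Era+VK libraries had vitamin K1 (VK1, 10 μM) for 1 h before erastin, so each comparison below asks how VK1 altered these transcripts in cells that all received erastin. Libraries without erastin were not analysed here, and no label says that libraries of a group came from separate cultures. The study describes its data as averages of independent experiments without tying the libraries to them, so p-values measure the spread between these samples, which may be technical.

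Polyunsaturated acyl chains are the substrate of lipid peroxidation, whereas monounsaturated chains resist it. Acyl-CoA synthetases activate free fatty acids, desaturases insert their double bonds, and lysophospholipid acyltransferases place the activated chains into phospholipids. ACSL4 and LPCAT3 favour polyunsaturated chains and are known to sensitise cells to ferroptosis. ACSL3, SCD, MBOAT1 and MBOAT2 act on the monounsaturated side and are known to protect. POR hands electrons from NADPH to microsomal enzymes and has been placed among the sources of lipid peroxidation. RPE cells take up photoreceptor outer segments, which are rich in polyunsaturated lipids, so this balance is of interest in that tissue.

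None of the 10 genes passed the test for a difference between Era+VK and Era. Expression is given in FPKM (the deposited unit, which counts sequenced fragments relative to transcript length and library size), and differences as the log2 fold change of FPKM + 1, Era+VK against Era, from limma with Benjamini-Hochberg adjustment over the 11981 genes tested and a threshold of 0.05. That scale understates the change of low genes. Of all genes tested, 0.618% passed, which is 16 higher and 58 lower in Era+VK. At an unadjusted p under 0.05, 1 of the 10 genes was included (LPCAT3), beside 15.8% of all genes. The 95% intervals of all 10 lay within 0.5 of 0 on the log2 scale, and those of 4 lay within 0.25. The largest difference upwards was that of LPCAT3 (0.23) and the largest downwards that of SCD (-0.17), which was -0.04 without Era+VK replicate 2 and then smaller than those of FADS1 (-0.06) and ACSL4 (-0.045). The median over the 10 genes was 0.063, beside 0.033 over all genes tested. It was 0.01 without Era replicate 2, 0.026 without Era+VK replicate 3 and 0.115 without Era+VK replicate 2, while the median of all genes stayed between 0.03 and 0.037 when 1 library was left out. With 1 FPKM required in every library it was 0.029, beside 0.033.

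As a check of the cells, the RPE genes OTX2 (27.5 to 31.35 FPKM) and MITF (15.49 to 18.59 FPKM) and the epithelial keratins KRT8 (170.77 to 208.81 FPKM) and KRT18 (221.82 to 245.81 FPKM) were expressed in every library. The visual cycle genes of mature RPE were near 0, with RPE65 at 0.02 FPKM or less and RLBP1 at 0.29 FPKM or less. PMEL lay between 1.07 and 1.42 FPKM, and BEST1 ranged from 0.6 to 56.98 FPKM without following the groups. Endothelial markers summed to 0.63 to 1.07 FPKM and leukocyte markers to 0.06 to 0.14 FPKM. Transcripts of 10 globin genes summed to 234.86 FPKM in Era+VK replicate 2 and 228.34 FPKM in Era+VK replicate 3, against 0.24 to 0.61 FPKM in the other 4 libraries. HBG2 (101.77 and 100.25 FPKM), HBE1 (49.14 and 46.34), HBG1 (28.18 and 27.66), HBA2 (24.1 and 23.95), HBA1 (21.27 and 18.45) and HBZ (8.71 and 9.92) made up nearly all of these sums. Erythroid transcription factors and a membrane protein were present in the same 2 libraries, with GATA1 at 2.35 and 2.27 FPKM, NFE2 at 1.63 and 1.6, KLF1 at 1.17 and 0.82 and RHAG at 0.61 and 0.57, against at most 0.11 FPKM elsewhere. The 16 erythroid markers summed to 241.22 and 233.88 FPKM there and to 0.31 to 0.63 FPKM in the other 4 libraries. The part of this signal in the results below was not tested. The totals of the libraries, 228452 to 237958 FPKM, lay close together, and since FPKM carry no counts, the depth is unknown.

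The regions before the transcription start are shown for 3 of the genes. SCD and FADS1 are shown as examples of the 7 genes that were lowest in replicate 2 of both groups, and LPCAT3 because it had the largest difference. Each sequence is the 250 bases before the start given by RefSeq on GRCh38.p14, read 5′ to 3′ on the strand of the gene, at chr10:100346983-100347232 (plus strand) for SCD, chr11:61817004-61817253 (minus strand) for FADS1 and chr12:7018477-7018726 (minus strand) for LPCAT3. The starts differ from those of the GENCODE 29 positions given below. By those positions the FADS1 window lies wholly within the gene, and the SCD and LPCAT3 windows lie partly within theirs. Capitals mark CCAAT and GGGCGG, the letters of the NF-Y and Sp1 boxes, on either strand.
SCD: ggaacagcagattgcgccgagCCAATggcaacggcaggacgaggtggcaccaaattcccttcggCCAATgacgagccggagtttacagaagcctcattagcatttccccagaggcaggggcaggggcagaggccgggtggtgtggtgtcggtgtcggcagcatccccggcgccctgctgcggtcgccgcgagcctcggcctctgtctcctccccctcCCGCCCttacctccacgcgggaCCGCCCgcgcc
FADS1: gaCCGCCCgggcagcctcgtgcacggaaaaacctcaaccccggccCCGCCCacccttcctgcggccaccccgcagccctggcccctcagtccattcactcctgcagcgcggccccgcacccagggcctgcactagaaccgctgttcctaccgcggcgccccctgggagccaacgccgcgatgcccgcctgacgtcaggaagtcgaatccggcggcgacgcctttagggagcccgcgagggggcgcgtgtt
LPCAT3: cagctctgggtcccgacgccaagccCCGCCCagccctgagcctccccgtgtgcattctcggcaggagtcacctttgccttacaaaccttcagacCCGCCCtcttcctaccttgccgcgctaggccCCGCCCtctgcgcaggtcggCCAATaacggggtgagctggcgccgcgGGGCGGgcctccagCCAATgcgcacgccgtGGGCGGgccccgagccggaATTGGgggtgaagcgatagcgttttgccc
These windows held 2, 0 and 3 CCAAT and 2, 2 and 5 GGGCGG, respectively. The CCAAT of SCD began 229 and 186 bases before the start, and those of LPCAT3 at 105, 64 and 29 bases. FADS2, which is not shown, had 2 windows, each with 0 CCAAT and with 0 and 1 GGGCGG. Windows were matched for 8 of the 10 genes, and all 8 had GGGCGG in at least 1 window, while 4 had CCAAT. Counted in the same way, by gene over all windows of a gene, 46.2% of 27305 genes had GGGCGG and 37.0% had CCAAT. That background was not limited to genes expressed here, so no enrichment can be read from these shares. TCACNCCAC, a form of the sterol response element, was found for 1 of the 8 genes (ACSL1, which has several windows) and 1.09% of all genes. These matches describe letters in a window and not bound sites.

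Among the 10 genes, SCD was the most highly expressed, with a mean of 103.54 FPKM over the 6 libraries, followed by FADS2 at 31.49, FADS1 at 21.26 and ACSL4 at 18.77 FPKM. ACSL1 (8.53), MBOAT2 (7.44), POR (5.86), ACSL3 (4.09), LPCAT3 (3.26) and MBOAT1 (1.02) came next. Each gene exceeded the next in this order in 6 of 6 libraries, except that ACSL1 exceeded MBOAT2 in 5 of 6. FPKM are scaled to transcript length, so levels can be set side by side between genes. Within this set the desaturases were thus far more abundant than the acyltransferases, although values of FADS1 and FADS2 may share reads, as given below. Outside the set this order did not hold. The acyltransferase MBOAT7 had means of 53.9 FPKM in Era and 51.91 in Era+VK, and the desaturase SCD5 had 10.6 and 13.1. MBOAT1 stood just above the minimum mean of 1 FPKM that was set for testing.

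**Figure D1:**
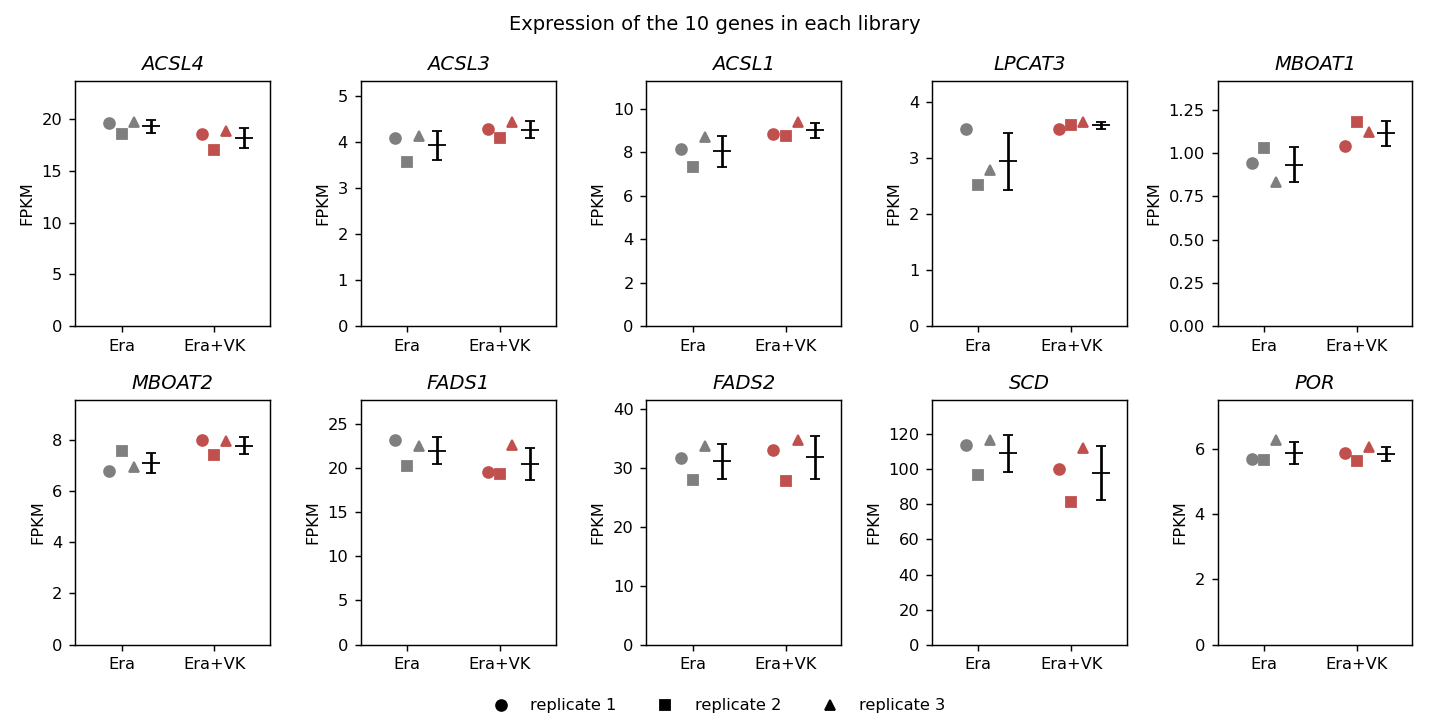
FPKM of the 10 genes in each of the 3 Era (grey) and 3 Era+VK (red) libraries, with marker shapes for replicate numbers and a bar for the group mean ± SD; each axis starts at 0. The groups did not overlap for ACSL1, LPCAT3 and MBOAT1, while SCD, FADS1, FADS2, ACSL4, ACSL3, ACSL1 and POR were lowest in replicate 2 of both groups.

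Of the activating enzymes, ACSL4 (X:109624244-109733403, minus strand; gene positions are those of GENCODE 29 on GRCh38) was the most abundant. Its FPKM were 19.67, 18.63 and 19.77 in Era replicates 1 to 3 and 18.61, 17.07 and 18.85 in Era+VK. Era+VK replicates 1 and 2 lay below the lowest Era value of 18.63, and replicate 3 lay within the Era range. The means were 19.4 ± 0.631 and 18.2 ± 0.966 (SD, n = 3), a log2 fold change of -0.09 (SE 0.05, 95% interval -0.21 to 0.03, limma adjusted p = 0.459).

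ACSL3 (2:222860934-222944639, plus strand), which activates monounsaturated fatty acids, had FPKM of 4.09, 3.56 and 4.12 in Era and 4.28, 4.08 and 4.43 in Era+VK. Era+VK replicates 1 and 3 lay above all Era values, while replicate 2 at 4.08 lay below Era replicates 1 and 3. Its log2 fold change was 0.10 (SE 0.06, limma adjusted p = 0.491). ACSL1 (4:184755595-184826818, minus strand), which feeds fatty acids into both oxidation and lipid synthesis, had FPKM of 8.15, 7.30 and 8.70 in Era and 8.84, 8.77 and 9.40 in Era+VK. Each Era+VK library was above each Era library, by a margin of 8.77 over 8.70 FPKM at the closest pair. The mean in Era+VK was 1.12 times that in Era, with SDs of 0.705 in Era and 0.345 in Era+VK (n = 3) and a log2 fold change of 0.15 (SE 0.07, 95% interval -0.01 to 0.30, limma adjusted p = 0.330).

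The estimates of ACSL4 and ACSL3 thus lay on opposite sides of 0, though neither gene passed the test. Their ratio within each library compares transcripts of synthetases for polyunsaturated and monounsaturated chains, and says nothing of protein, activity or lipids. ACSL4 to ACSL3 was 4.81, 5.23 and 4.80 in Era and 4.35, 4.18 and 4.26 in Era+VK. The groups did not overlap, with means of 4.95 ± 0.248 and 4.26 ± 0.0824 (SD, n = 3), or 0.862 of the Era value. This is a description with no test. Of all 71514820 pairs of tested genes with values above 0 in every library, 20.1% had ratios that did not overlap between the groups.

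**Figure D2:**
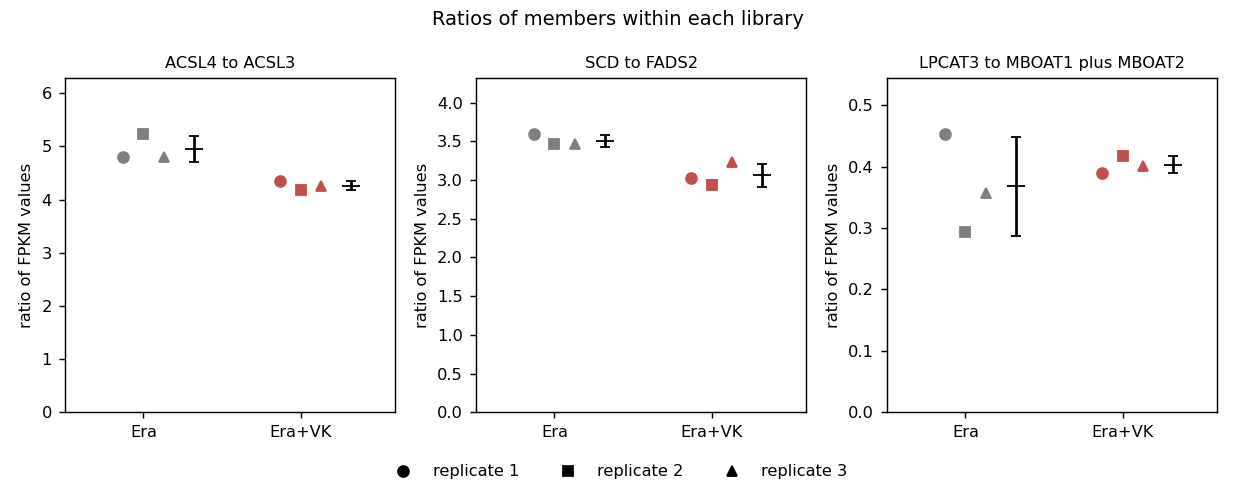
Ratios of FPKM within each of the 3 Era (grey) and 3 Era+VK (red) libraries for ACSL4 to ACSL3, SCD to FADS2, and LPCAT3 to MBOAT1 plus MBOAT2, with bars for the mean ± SD and axes from 0. The mean of the first ratio was 4.95 in Era and 4.26 in Era+VK, and that of the second 3.51 and 3.06, without overlap, while the third overlapped between the groups.

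Of the acyltransferases, LPCAT3 (12:6976186-7018510, minus strand), which transfers polyunsaturated chains to lysophosphatidylcholine and lysophosphatidylethanolamine, had FPKM of 3.51, 2.52 and 2.78 in Era and 3.52, 3.58 and 3.64 in Era+VK. The Era+VK values were tightly grouped, and Era replicate 1 at 3.51 reached to within 0.01 FPKM of them. The means were 2.94 ± 0.513 and 3.58 ± 0.0600 (SD, n = 3), 1.22 times the Era level. The log2 fold change was 0.23 (SE 0.09, 95% interval 0.02 to 0.44), with an unadjusted p of 0.0388 and an adjusted p of 0.292 in limma. The gene overlaps EMG1 (6.29 to 6.98 FPKM) and C1S (8.49 to 9.64 FPKM) on the opposite strand. Whether counting used strand is not given in the sources used here, so reads of these genes cannot be told apart from its own.

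MBOAT1 (6:20102145-20212399, minus strand) and MBOAT2 (2:8852690-9003813, minus strand) place monounsaturated chains into lysophospholipids. MBOAT1 had FPKM of 0.94, 1.03 and 0.83 in Era and 1.04, 1.18 and 1.12 in Era+VK. All Era+VK values exceeded all Era values, the nearest pair being 1.04 and 1.03 at a level close to the filter. Its log2 fold change was 0.13 (SE 0.07, 95% interval -0.04 to 0.30, limma adjusted p = 0.448). MBOAT2 had FPKM of 6.81, 7.56 and 6.94 in Era and 7.99, 7.40 and 7.95 in Era+VK. Era+VK replicates 1 and 3 were above all Era libraries, and replicate 2 was below Era replicate 2. The log2 fold change was 0.12 (SE 0.06, 95% interval -0.01 to 0.24, limma adjusted p = 0.361).

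All 3 acyltransferases had positive point estimates, on the polyunsaturated and the monounsaturated side alike. The ratio of LPCAT3 to MBOAT1 plus MBOAT2 was 0.453, 0.293 and 0.358 in Era and 0.390, 0.417 and 0.401 in Era+VK. Era replicate 1 was above all Era+VK libraries and the other two Era libraries were below them, so the ratio did not separate the groups.

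Groups did not overlap for 3 of the 10 genes (ACSL1, LPCAT3 and MBOAT1), all higher in Era+VK. Over all genes tested, 22.1% did not overlap in either direction and 15.1% were higher in Era+VK without overlap. MBOAT1 passed the filter on the mean through its Era+VK values, and with 1 FPKM required in every library it was not tested and the count was 2. An exact permutation test of 3 against 3 libraries cannot go below 0.1. The count of 3 also rested on narrow gaps: after quantile normalization 1 gene remained without overlap, ACSL4, which was then lower, and after rescaling without mitochondrially encoded genes 1 remained, MBOAT1. By the definition of this count, LPCAT3, MBOAT1 and ACSL1 were above all 3 Era libraries in every Era+VK library. This includes Era+VK replicate 1, which had no globin signal (3.52, 1.04 and 8.84 FPKM), so its values add no separate support. With that library as the only one of Era+VK, 7 of the 10 genes did not overlap, but so did 63.6% of all genes tested, since a single library is compared there. The log2 fold changes against Era were then 0.207 for LPCAT3, 0.151 for MBOAT2, 0.124 for ACSL1, 0.103 for ACSL3, 0.089 for FADS2, 0.079 for MBOAT1 and 0.003 for POR, and -0.053 for ACSL4, -0.122 for SCD and -0.161 for FADS1. None passed the test.

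**Figure D3:**
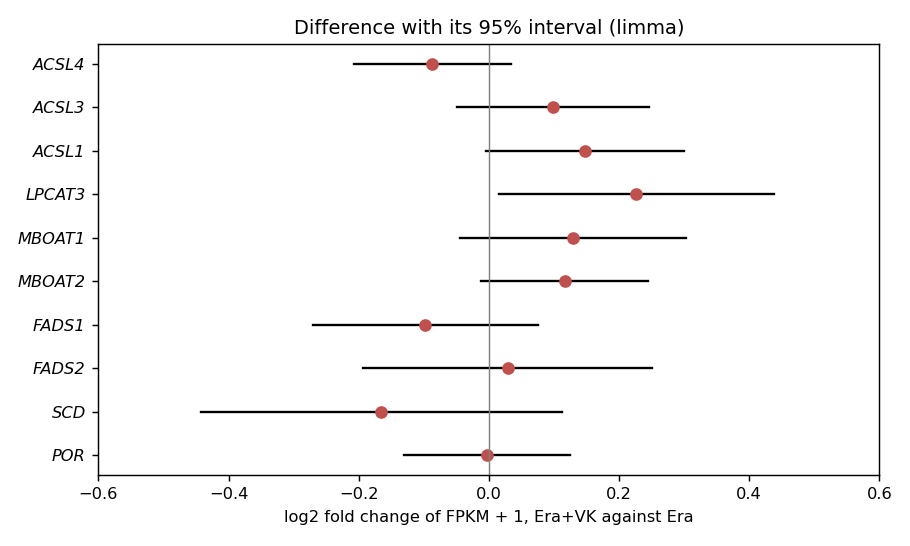
Log2 fold change of FPKM + 1, Era+VK against Era, for the 10 genes (points) with 95% intervals from limma (lines), on a linear axis around 0. The interval of LPCAT3 (0.02 to 0.44) was the only one without 0, before adjustment over 11981 genes, and the widest was that of SCD (-0.44 to 0.11).

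Of the desaturases, SCD (10:100347124-100364834, plus strand), which makes oleate and palmitoleate from saturated chains, had FPKM of 114.16, 97.00 and 116.64 in Era and 100.03, 81.37 and 112.05 in Era+VK. Within each group replicate 2 was the lowest and replicate 3 the highest, and the groups overlapped widely. The means were 109.3 ± 10.7 and 97.8 ± 15.5 (SD, n = 3), 0.895 of the Era level. The log2 fold change was -0.17 (SE 0.12, 95% interval -0.44 to 0.11, limma adjusted p = 0.536).

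FADS2 (11:61792980-61867354, plus strand), the delta-6 desaturase and the first step towards long polyunsaturated chains, had FPKM of 31.76, 27.96 and 33.70 in Era and 33.08, 27.73 and 34.72 in Era+VK. The same replicate numbers were low and high in both groups, and the means of 31.1 ± 2.92 and 31.8 ± 3.66 (SD, n = 3) were nearly equal. Its log2 fold change was 0.03 (SE 0.10, 95% interval -0.19 to 0.25, limma adjusted p = 0.914). FADS1 (11:61799625-61829318, minus strand), the delta-5 desaturase that yields arachidonate, had FPKM of 23.17, 20.28 and 22.56 in Era and 19.55, 19.36 and 22.64 in Era+VK. Era+VK replicates 1 and 2 were below all Era libraries, while replicate 3 was above Era replicates 2 and 3. Its log2 fold change was -0.10 (SE 0.07, 95% interval -0.27 to 0.08, limma adjusted p = 0.561). In the annotation FADS1 and FADS2 overlap on opposite strands, and FEN1 (49.79 to 60.2 FPKM) lies within FADS2 on the same strand, so their values may share reads.

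Although SCD and FADS2 varied widely between libraries, they varied together, and their ratio was tight within groups. SCD to FADS2 was 3.59, 3.47 and 3.46 in Era and 3.02, 2.93 and 3.23 in Era+VK. Every Era+VK library was below every Era library, with means of 3.51 ± 0.0748 and 3.06 ± 0.150 (SD, n = 3), or 0.873 of the Era value. As for ACSL4 to ACSL3, this ratio was not tested, and 20.1% of the gene pairs counted there separated the groups in this way.

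The shared movement of SCD and FADS2 was part of a wider pattern between replicates. Of the 10 genes, 7 (SCD, FADS1, FADS2, ACSL1, ACSL3, ACSL4 and POR) had their lowest value in replicate 2 of both groups, compared with 14.2% of all genes tested. The pattern was noticed in these data and is given as a description, with no test. Against the mean of its own group on the log2(FPKM + 1) scale, SCD deviated by -0.165 in Era and -0.251 in Era+VK for replicate 2, and FADS2 was at -0.146 and -0.187. The median deviation of the 10 genes for that replicate was -0.109 in Era and -0.057 in Era+VK, and 0.006 to 0.048 in the other 4 libraries. Since the deviations of a gene cancel within its group, those of the other libraries are not independent of replicate 2. The median over all genes lay between -0.005 and 0.008. The count was 6 after quantile normalization and 7 after rescaling without mitochondrially encoded genes. LPCAT3 was lowest in replicate 2 of Era alone, MBOAT2 of Era+VK alone, and MBOAT1 was highest there in both groups.

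**Figure D4:**
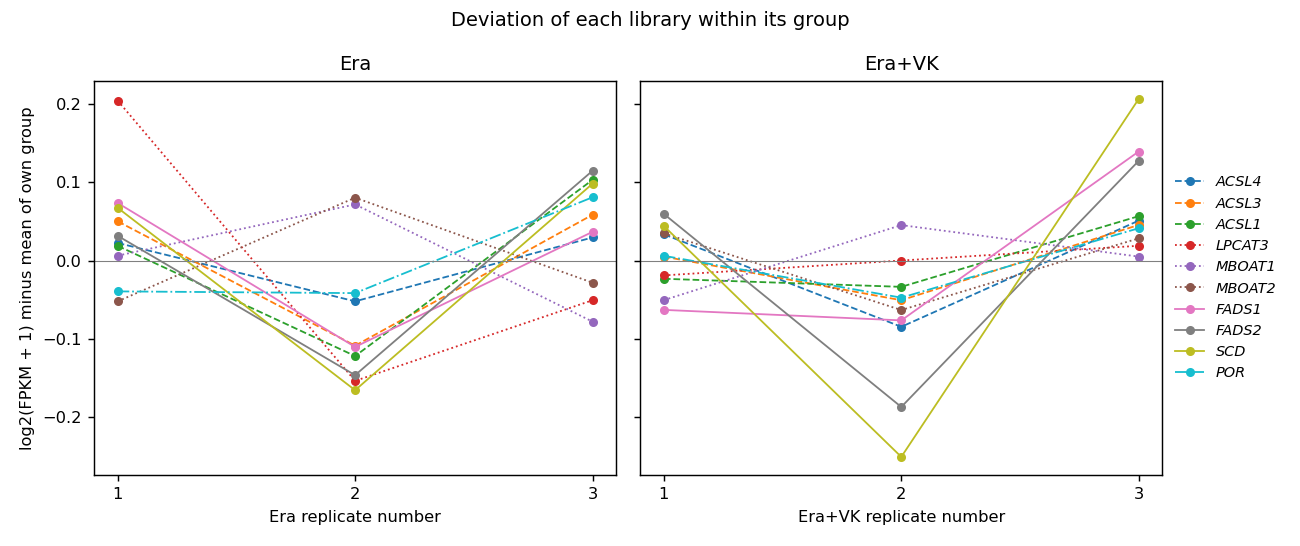
Difference of log2(FPKM + 1) from the mean of its own group for the 10 genes in each Era (left) and Era+VK (right) library; lines join the values of a gene and imply no order of replicates. SCD and FADS2 lay low in replicate 2 of both groups (SCD -0.165 and -0.251), whereas MBOAT1 was highest there.

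Of the 129 tested genes of the surrounding lipid pathways, 29 were also lowest in replicate 2 of both groups, beside 14.2% of all genes tested. By list, these included 5 of 10 enzymes fed by POR and 4 of 10 genes of triglyceride storage. Other acyltransferases and the transcription control of lipid synthesis each had 4 of 14. The pattern was rare or absent in head group synthesis (1 of 14), fatty acid oxidation (2 of 17) and fatty acid activation and uptake (0 of 6). The 4 control genes were SREBF1, SREBF2, INSIG1 and SCAP, the last by only 0.01 FPKM in Era+VK (17.02, 17.01 and 17.19), while INSIG2, MBTPS1 and MBTPS2 of the same sterol-regulated pathway did not have this order. SREBF2 had FPKM of 48.75, 43.42 and 47.31 in Era and 50.24, 43.05 and 50.57 in Era+VK, and INSIG1 had 9.19, 7.44 and 9.83 in Era and 10.55, 8.83 and 11.44 in Era+VK. FADS3, the third gene of the FADS cluster, had 29.01, 25.88 and 31.93 FPKM in Era and 30.23, 25.94 and 30.74 FPKM in Era+VK, an order that matched that of FADS2 in Era+VK and in Era. FASN, which supplies palmitate to SCD, was lowest in replicate 2 of Era+VK (35.47 FPKM) but not of Era, where replicate 1 was the lowest (40.57 FPKM).

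POR (7:75899200-75986855, plus strand) had FPKM of 5.68, 5.67 and 6.26 in Era and 5.88, 5.63 and 6.05 in Era+VK. Its 6 values interleaved, with means of 5.87 ± 0.338 and 5.85 ± 0.211 (SD, n = 3). The log2 fold change was 0.00 (SE 0.05, 95% interval -0.13 to 0.12, limma adjusted p = 0.989). POR overlaps TMEM120A (4.92 to 7.24 FPKM) in the annotation. Of 10 tested enzymes that take electrons from POR, 2 passed the test, both higher. CYP1B1, a cytochrome P450 induced through the aryl hydrocarbon receptor, had FPKM of 5.31, 5.38 and 4.81 in Era and 10.89, 11.26 and 9.18 in Era+VK (log2 fold change 0.89, limma adjusted p = 0.0109). CYP1A1, the classical target of that receptor, rose from 1.36 ± 0.182 to 2.82 ± 0.0643 FPKM (SD, n = 3, log2 fold change 0.70, limma adjusted p = 0.0128). Both calls were lost when any 1 Era replicate was left out (limma adjusted p 0.0665 to 0.0696). The log2 fold changes were then 0.846 to 0.914 for CYP1B1 and 0.631 to 0.731 for CYP1A1, and calls over all genes fell from 74 to between 2 and 5. With no filter on low genes both calls were also lost (limma adjusted p 0.074 and 0.088). Without Era+VK replicates 2 and 3 the log2 fold changes were 0.948 and 0.724. HMOX1, the heme oxygenase that receives its electrons from POR, had means of 56.7 and 50.3 FPKM (log2 fold change -0.17, limma adjusted p = 0.330), and the remaining members of this list were not called.

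In the 12 lists of other lipid genes, which hold 159 symbols, 129 genes were tested. Of these, 89 had values above 0 and 40 below 0 on the log2 scale, and the 2 cytochrome P450 genes just named were the only ones to pass, beside 0.618% of all genes. The share above 0 was 69.0%, beside 63.3% of all genes tested, and the median was 0.047, beside 0.033. Groups did not overlap for 30 genes that were higher and 10 that were lower in Era+VK, against 15.1% and 7.04% of all genes tested. No gene was called in the lists nearest to the 10 genes: 0 of 6 in fatty acid activation and uptake, 0 of 18 among desaturases with their electron carriers and elongases, and 0 of 14 among other acyltransferases. The medians of these 3 lists were 0.055, 0.078 and 0.022.

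Within them, DBI, the acyl-CoA binding protein, had the highest estimate for activation (0.19, limma adjusted p = 0.399, and 0.072 without Era+VK replicate 2, which stood at 24.89 FPKM) and SLC27A4, a fatty acid transporter with synthetase activity, the lowest (-0.12, adjusted p = 0.379, and -0.061 without that library). SCD5, the second human stearoyl-CoA desaturase, had FPKM of 11.25, 10.73 and 9.81 in Era and 12.85, 12.9 and 13.54 in Era+VK. All Era+VK values of SCD5 were above those of Era, opposite in sign to SCD, with a log2 fold change of 0.28 that did not pass (limma adjusted p = 0.0826). HSD17B12, a reductase of fatty acid elongation, had means of 19.4 and 17.3 FPKM (-0.15, limma adjusted p = 0.170). For LPCAT1, which acts mainly on saturated chains, the means were 24.3 and 26.5 FPKM (0.12, limma adjusted p = 0.246), and GPAT3, of glycerolipid synthesis, was at -0.15 (adjusted p = 0.595), or -0.006 without Era+VK replicate 1 and -0.436 with that library alone.

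Among genes that release acyl chains or build head groups, 2 lay just outside the threshold. PLA2G15, a lysosomal phospholipase, had FPKM of 12.81, 12.67 and 12.34 in Era and 15.54, 15.73 and 14.76 in Era+VK (log2 fold change 0.26, limma adjusted p = 0.0527). CHKA, the choline kinase that starts phosphatidylcholine synthesis, had 6.38, 6.34 and 6.16 FPKM in Era and 7.78, 8.02 and 7.52 FPKM in Era+VK (0.27, limma adjusted p = 0.0553). Neither gene overlapped between the groups. LYPLA2 (-0.03, adjusted p = 0.853) and PEMT (-0.15, adjusted p = 0.327) had the lowest estimates of the phospholipase and head group lists, whose medians were 0.037 (10 genes) and 0.093 (14 genes). In ether phospholipid synthesis (7 genes, median -0.047), GNPAT was at 0.20 (limma adjusted p = 0.188) and PEDS1 at -0.12 (adjusted p = 0.581).

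In fatty acid synthesis (8 genes, median 0.052) the extremes were MCAT at 0.20 (limma adjusted p = 0.192) and ME1 at -0.05 (adjusted p = 0.788). In its transcription control (14 genes, median 0.016), 7 genes lay above 0 and 7 below. INSIG1, which retains the SREBP complex, was at 0.20 (limma adjusted p = 0.437), and SREBF1, which encodes the SREBP that drives SCD and FADS genes, was at -0.18 (adjusted p = 0.315), or 0.872 of the Era mean in FPKM. Triglyceride storage (10 genes, median -0.042) held PLIN2, the lipid droplet coat protein, with means of 29.4 and 24.2 FPKM (-0.27, limma adjusted p = 0.117), and LPIN2 at 0.15 (adjusted p = 0.224). Fatty acid oxidation (17 genes, median 0.06) ran from CPT1B at -0.07 (limma adjusted p = 0.866) to CPT2 at 0.20 (adjusted p = 0.368). Of the lipoxygenase list only PEBP1, a binding partner of lipoxygenases, was expressed highly enough to be tested, with means of 112.9 and 130.6 FPKM (0.21, limma adjusted p = 0.163, and 0.123 without Era+VK replicates 2 and 3).

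**Figure D5:**
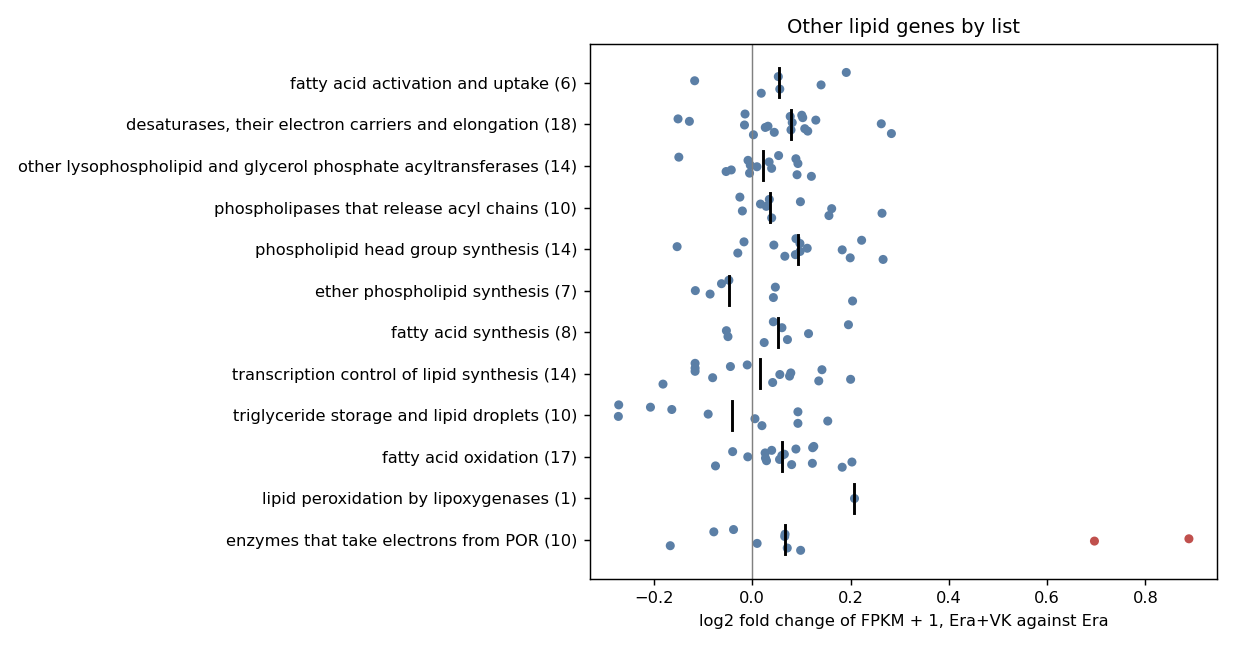
Log2 fold change of FPKM + 1, Era+VK against Era, for the tested genes of 12 lipid gene lists (points, number tested in brackets, vertical bars for list medians). The red points are CYP1B1 (0.89) and CYP1A1 (0.70), which passed the limma threshold, and list medians for all lists of more than 1 gene lay between -0.047 and 0.093.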

How the data were processed

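RNA-seq values of 3 Era and 3 Era+VK libraries were analysed. The authors deposited FPKM per gene and library with 2 decimals. The submitters' processing notes name cutadapt, HISAT2, StringTie 2.1.6 and the mouse build mm10, although the gene identifiers are human. The build used for alignment is therefore uncertain, and strand use in counting is not given in the sources used here. Since FPKM are shares of a library, strong shifts in abundant genes alter the values of all others. Whole reads could not be recovered from low values (concentration 0.341 to 0.372 in 3748 to 3857 single-exon genes, against at least 0.981 for simulated whole reads), so no count model was used.

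Values were read in Python 3.11.15. The 11981 genes whose mean reached 1 FPKM were compared by limma 3.58.1 (R 4.3.3; trend, two-sided) on log2(FPKM + 1), and p-values were adjusted by Benjamini-Hochberg over all of them. In simulated data over 11981 genes with 200 changed, limma called 193 of the 200 and 9 others, and with none changed it called 0. Labels number the cell line upwards between libraries, and all 6 were taken as ARPE-19, as in the titles.

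The 10 genes, the 12 lists and the marker lists were chosen with earlier results of these data known. All 10 genes are named, and from each list any gene past the threshold and those with the highest and lowest log2 fold change. SREBF2, FADS3, FASN, SCAP, INSIG2, MBTPS1, MBTPS2 and RHAG were named after their values were seen. Of the listed symbols, 3 were not matched. Positions are from GENCODE 29 (GRCh38) by Ensembl identifier, and sequences from RefSeq. In all, 13 alternatives were tried: a pseudocount of 0.1, no filter, 1 FPKM in every library, quantile normalization, rescaling without mitochondrially encoded genes, the replicate number as a block, and libraries left out.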

Additional observations from a re-analysis of the deposited data

How the results depend on the processing

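None of the 10 genes passed the threshold under any of 13 alternatives (12 for MBOAT1, which was not tested with a minimum of 1 FPKM in every library). The lowest adjusted p was 0.174 (LPCAT3, range 0.174 to 0.578). The 74 calls over all genes became 1 with no filter, 122 with 1 FPKM in every library, 112 after quantile normalization, 35 without Era+VK replicates 2 and 3, where the lone library was assumed to vary like Era, and 2 to 70 when 1 library was left out, with 2 without Era replicate 1 or 2, 5 without Era replicate 3 and 42 without Era+VK replicate 3. The 2 list calls became 0 with no filter, 4 with 1 FPKM in every library, 1 without Era+VK replicates 2 and 3, and 0 to 2 when 1 library was left out, with 0 without any 1 Era replicate. Among the 4 was PLA2G15 (adjusted p 0.0414).

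The 3 genes without overlap became 1 after quantile normalization, 1 after rescaling, 7 without Era+VK replicates 2 and 3 (ACSL4 and FADS1 lower, the others higher), and 3 to 6 when 1 library was left out, with 6 without Era replicate 2 and 5 without Era+VK replicate 2 or 3. Of all genes tested, 63.6% did not overlap with 1 Era+VK library left, and 30.1% to 40.7% with 1 library left out. Signs turned for FADS2 (-0.044 to 0.123 with 1 library left out), POR (-0.024 to 0.038, and 0.003 without Era+VK replicates 2 and 3), ME1 (-0.121 to 0.016), LYPLA2 (-0.065 to 0.01), CPT1B (-0.244 to 0.058) and PEDS1 (0.09 without Era+VK replicates 2 and 3). The cause of these shifts was not tested. No label says whether replicate numbers pair the samples. Correlations of same-numbered deviations were weak, at 0.0709, 0.103 and 0.021 for replicates 1 to 3. Each was the highest for its Era+VK library, while Era replicate 3 correlated better with Era+VK replicate 1 (0.0401). With the replicate block, 42 genes were called over all, 0 of the 10 genes and 2 of the list genes. Depth is unknown, so no detection limit is given.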
